A study of Arabidopsis thaliana with 6 samples.

Results

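Tonoplast intrinsic proteins (TIPs) are the aquaporins of the plant vacuole membrane. The 6 TIP genes described here were chosen by identity, as the rows of TIP1;1, TIP1;2, TIP2;1, TIP2;2, TIP2;3 and TIP4;1, and are 6 of the 38150 genes listed in each library. The annotation also names the TIP1 pair gamma-TIP1 and gamma-TIP2 and the TIP2 trio delta-TIP1, delta-TIP2 and delta-TIP3, in that order, and these names are used below. The other 4 TIP genes of Arabidopsis, 13 plasma membrane aquaporins (PIPs) and further lists served for comparison. Arabidopsis thaliana seedlings, labelled as whole plants 9 days old, were compared between the Col-0 wild type (WT, 3 libraries) and a mutant labelled as the nid1 knockout (3 libraries). All plants, WT included, grew first on 20 mM nitrate, were then deprived of nitrate and lastly received 0.05 mM nitrate for 6 h, so no library represents full nitrate supply. The sources used here do not name the locus that nid1 lacks, and whether it is 1 allele or line is not given, so its transcript was not checked. The labels do not say whether replicates are separate cultures, and the p-values cover only the spread among these libraries, which may be technical.

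An aquaporin forms a channel from 6 membrane helices and a pair of short loops that each carry the motif asparagine-proline-alanine and meet in the middle of the membrane. TIPs let water cross between cytosol and vacuole, which holds most of the volume of a mature plant cell, and several also pass urea, hydrogen peroxide or ammonia. Ammonia that crosses the tonoplast is protonated in the acidic vacuole and trapped there as ammonium, and the TIP2 proteins are the TIPs best known for this transport.

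The 6 genes encode proteins of 249 to 253 amino acids, each with 2 such motifs. The stretch around the second motif is shown because it holds the part of the narrow filter of the pore in which the TIP1 pair, the TIP2 trio and TIP4;1 are known to differ. Capitals mark the codon of a filter residue, then, after an interval in lower case, the asparagine-proline-alanine codons together with the codon that follows them, another filter residue. The sequences are 48 bases of coding sequence, 5′ to 3′, from RefSeq on TAIR10.1.
gamma-TIP1: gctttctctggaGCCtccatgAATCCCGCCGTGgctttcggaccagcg
gamma-TIP2: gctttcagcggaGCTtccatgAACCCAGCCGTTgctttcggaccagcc
delta-TIP1: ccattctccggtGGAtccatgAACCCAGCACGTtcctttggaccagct
delta-TIP2: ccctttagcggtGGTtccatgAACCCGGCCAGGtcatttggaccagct
delta-TIP3: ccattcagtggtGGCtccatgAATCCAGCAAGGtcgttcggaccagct
TIP4;1: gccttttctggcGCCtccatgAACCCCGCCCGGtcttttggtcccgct
In the TIP1 pair these codons encode alanine and valine, in the TIP2 trio glycine and arginine, and in TIP4;1 alanine and arginine. The trio thus shares a filter that neither the TIP1 pair nor TIP4;1 has in full. Over the whole coding sequence delta-TIP2 and delta-TIP3 were the closest relatives, with 81.5% identical positions, followed by gamma-TIP1 and gamma-TIP2 with 80.8%. delta-TIP1 was 70.7% identical to delta-TIP2 and 70.4% to delta-TIP3. The longest run of identical bases between any 2 of the 6 transcripts was 29, in the TIP1 pair, against a read length of 101. No stretch of 101 bases of any of the 6 occurred in the same orientation in an annotated transcript of another gene. Reverse complements were not searched, so the opposite-strand overlaps of delta-TIP1 given below are not covered.

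gamma-TIP1 (gene-AT2G36830) lies at 15445294 to 15446621 on chromosome 2, plus strand, and gamma-TIP2 (gene-AT3G26520) at 9722443 to 9723904 on chromosome 3, minus strand. delta-TIP1 (gene-AT3G16240) lies at 5505360 to 5507050 on chromosome 3, plus strand. delta-TIP2 (gene-AT4G17340) lies at 9698940 to 9700472 on chromosome 4, plus strand, and delta-TIP3 (gene-AT5G47450) at 19248249 to 19249622 on chromosome 5, minus strand. TIP4;1 (gene-AT2G25810) lies at 11012499 to 11014171 on chromosome 2, plus strand. Each has 1 annotated transcript, of 1169 to 1353 bases in 2 or 3 exons. Only delta-TIP1 shares exonic bases with other genes, both on the opposite strand. It shares 120 of its 1189 exonic bases with AT3G16250 (PnsB3, a subunit of the chloroplast NADH dehydrogenase-like complex) and 46 with the long non-coding RNA AT3G03265. AT3G16250 was listed at 0.114 to 0.431 FPKM in WT and 0.466 to 1.19 FPKM in nid1, and AT3G03265 at no more than 0.963 FPKM in any library.

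Values are FPKM as the authors deposited them, fragment counts scaled to transcript length and library size, so levels can be set side by side between genes. Summed FPKM ran from 730062 to 964273 per library and was highest in WT replicate 2, which also stood apart on the first principal component (38.3% of the variance). The depth and counting error of each library are unknown. Root and shoot marker genes were both detected, and none was at 0 in all libraries. Of the 15 root markers, the beta-glucosidase gene PYK10 measured 2752 to 3993 FPKM and CASP1, of the Casparian strip, 158 to 199.9 FPKM, while the potassium channel gene SKOR measured at most 0.266 FPKM. Of the 17 shoot markers, the Rubisco gene RBCS1A measured 87.4 to 258 FPKM, phosphoribulokinase (PRK) 4.13 to 17.5 FPKM and the carbonic anhydrase gene CA1 0.659 to 1.44 FPKM. PRK and CA1 belong to the photosynthetic tissue of leaves and cotyledons and were named for their low levels. The antenna gene LHCB5, of the same list, measured 49.2 to 169 FPKM. No level from other whole seedlings was at hand for comparison. Whether the samples held mostly root tissue was not tested.

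The TIP1 genes were the most abundant of the family in both genotypes. gamma-TIP2, whose product moves water and urea, stood at 758, 507 and 488 FPKM in the WT libraries, given here and below in the order of replicates 1 to 3, beside 616, 745 and 639 FPKM in those of nid1. Its mean was the 126th highest of the 20533 genes tested in WT and the 86th in nid1. gamma-TIP1, the classic vacuolar water channel of growing tissues, stood at 276, 218 and 203 FPKM in the WT libraries, beside 231, 227 and 242 FPKM in those of nid1. In both genes the 3 nid1 values lay inside the range of the WT values. The pair made up 80.4% ± 2.81 of the summed TIP FPKM in WT and 78.8% ± 1.97 in nid1 (SD, n = 3 each).

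Among the ammonia-conducting TIP2 genes, delta-TIP1 was the one whose genotypes did not overlap. It is known from both shoot and root. Its WT libraries stood at 70.3, 65.5 and 39.8 FPKM, and its nid1 libraries at 78.6, 90.9 and 91.7 FPKM. All nid1 libraries thus lay above all WT libraries, with a gap from 70.3 to 78.6 FPKM and with WT replicate 3 far below the rest. delta-TIP2, mainly known from roots, had WT values of 83.4, 53.5 and 35.6 FPKM and nid1 values of 72.5, 53.7 and 55.2 FPKM. Its WT values spanned 2.34-fold and enclosed all 3 nid1 values. delta-TIP3, a root gene whose product carries ammonia as well as water, had WT values of 15.8, 18.9 and 9.05 FPKM and nid1 values of 11.9, 14.2 and 13.7 FPKM. Here too the nid1 values lay inside the WT range. Summed over the trio, WT gave 169, 138 and 84.5 FPKM and nid1 gave 163, 159 and 161 FPKM, which is 12.7% ± 2.33 and 14.1% ± 0.841 of all TIP FPKM (SD, n = 3 each).

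TIP4;1, a root-expressed channel for water and urea, had WT values of 77.9, 73.2 and 56.5 FPKM and nid1 values of 94.5, 75.5 and 72.6 FPKM. The genotypes overlapped, with nid1 replicate 1 the highest and WT replicate 3 the lowest library.

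**Figure D1:**
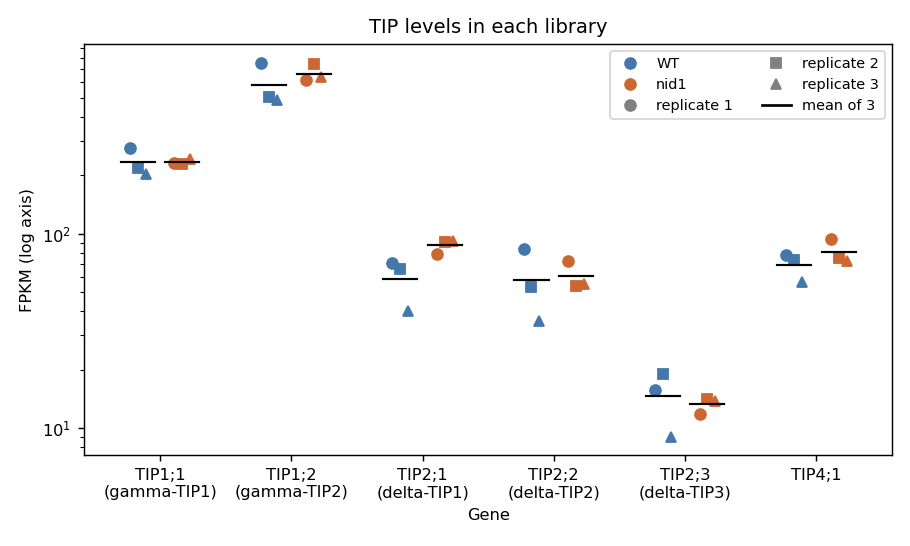
FPKM of the 6 TIP genes in each library on a log axis, with WT in blue and nid1 in orange, a symbol for each replicate and a line at the mean of 3. TIP1;2 (gamma-TIP2) is the highest in all 6 libraries at 488 to 758 FPKM and TIP2;3 (delta-TIP3) the lowest at 9.05 to 18.9 FPKM, and TIP2;1 (delta-TIP1) is the gene whose blue and orange points do not overlap.

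The order of the mean levels was gamma-TIP2, gamma-TIP1, TIP4;1, delta-TIP1, delta-TIP2 and delta-TIP3 in WT. In nid1 the mean of delta-TIP1 stood above that of TIP4;1. gamma-TIP2 exceeded gamma-TIP1 by 2.51-fold in WT and 2.86-fold in nid1, and delta-TIP2 exceeded delta-TIP3 by 3.95-fold and 4.57-fold, without overlap of the libraries in either genotype. In WT the ranges of TIP4;1, delta-TIP1 and delta-TIP2 overlapped, with means of 69.2 ± 11.2, 58.6 ± 16.4 and 57.5 ± 24.1 FPKM (SD, n = 3 each). Within each library, however, TIP4;1 was above delta-TIP1 in 3 of 3 WT libraries, while delta-TIP1 was above delta-TIP2 in 2 of 3, and neither order was tested. In nid1 delta-TIP1 at 87.1 ± 7.33 FPKM and TIP4;1 at 80.8 ± 11.9 FPKM overlapped, while the range of delta-TIP2, 60.5 ± 10.4 FPKM, ended just below that of TIP4;1 (72.5 against 72.6 FPKM). The family members absent from the 6 were close to silent. The pollen genes TIP1;3 and TIP5;1 and the seed genes TIP3;1 and TIP3;2 were listed between 0 and 0.109 FPKM in every library.

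Whether the TIP genes differ between nid1 and WT was tested with limma on log2(FPKM + 1) over all 20533 genes with 1 FPKM or more in at least 3 libraries, and all 6 TIP genes passed this filter. None of the 6 was called at an adjusted p under 0.05, where 0.0877% of all tested genes were (0.0633% higher and 0.0244% lower in nid1). At an unadjusted p under 0.05 there was 1 of 6, delta-TIP1, where 6.21% of all tested genes were (3.65% higher and 2.56% lower). The genotypes did not overlap in 1 of 6, again delta-TIP1, where that held for 10.3% of tested genes (5.5% higher and 4.79% lower). delta-TIP1 was 1.49-fold higher in nid1 by the ratio of means, with a log2 fold change of 0.60 (SE 0.215, 95% interval 0.10 to 1.10, limma unadjusted p = 0.0237, adjusted p = 0.654). Its interval thus reached from 1.08-fold to 2.15-fold on the FPKM + 1 scale, and its p ranked 740th of all tested genes.

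For the other 5 genes the interval of the log2 fold change included 0. It ran from -0.35 to 0.38 for gamma-TIP1 (estimate 0.02), from -0.29 to 0.71 for gamma-TIP2 (estimate 0.21) and from -0.16 to 0.61 for TIP4;1 (estimate 0.22). For delta-TIP2 it ran from -0.52 to 0.80 (estimate 0.14) and for delta-TIP3 from -0.63 to 0.48 (estimate -0.08). The limma adjusted p was 1.00 for each of these 5. Of these 5 intervals that of gamma-TIP1 was the narrowest, from 0.787-fold to 1.30-fold, and that of delta-TIP2 the widest, from 0.697-fold to 1.75-fold. The estimates were above 0 in 5 of the 6 genes, with a median of 0.18, beside a median of 0.000218 and 10276 of 20533 above 0 over all tested genes.

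**Figure D2:**
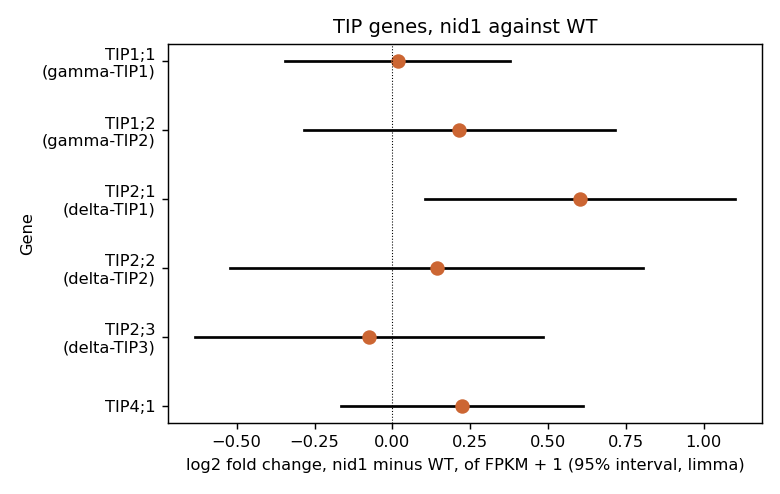
Log2 fold change (nid1 minus WT) of FPKM + 1 for each TIP gene, with points for the limma estimate and lines for its 95% interval over 3 libraries per genotype. The line of TIP2;1 (delta-TIP1) runs from 0.10 to 1.10 and the lines of the other 5 genes cross 0.

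The count of 5 above 0 rested in part on WT replicate 3. As deposited, this library was the lowest of the 6 for all 6 TIP genes, while it was the lowest for 22.1% of tested genes. It lay 0.80, 0.66 and 0.54 below the mean of all libraries on the log2(FPKM + 1) scale for delta-TIP1, delta-TIP2 and delta-TIP3, and 0.19 below it for gamma-TIP1. After rescaling by median ratios, or to equal summed FPKM, it was the lowest for 4 of the 6, the TIP2 trio and TIP4;1, and WT replicate 2 was then the lowest for the TIP1 pair. Without WT replicate 3 the estimates were above 0 in 3 of 6 genes with a median of 0.01. delta-TIP1 was then at 0.35 (limma unadjusted p = 0.0471, adjusted p = 0.924). delta-TIP3 was then at -0.36 (limma unadjusted p = 0.0447, adjusted p = 0.906) and delta-TIP2 at -0.15. Without WT replicate 1, in which gamma-TIP1, gamma-TIP2 and delta-TIP2 were highest, all 6 estimates were above 0 with a median of 0.37. Relative to the mean, the spread was wider in WT than in nid1 for all 6 genes, with coefficients of variation of 16.3% to 41.9% in WT and 3.32% to 17.3% in nid1. The same held for 13 of 13 PIP genes, 17 of 17 proton pump genes and 74.2% of all tested genes. It held for 10 of 14 tested tonoplast ion and sugar transporters, but for only 6 of 17 shoot markers.

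**Figure D3:**
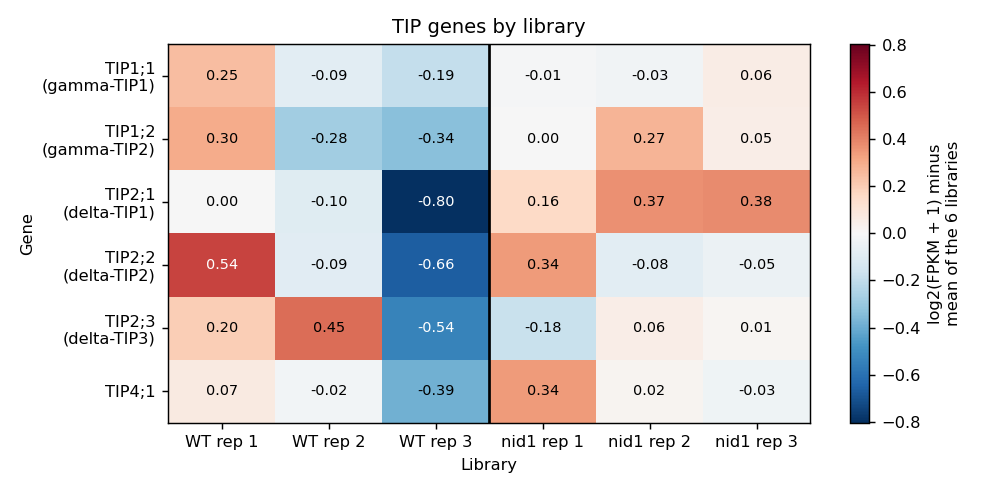
Each cell gives log2(FPKM + 1) of a TIP gene in a library minus the mean of that gene over the 6 libraries, with red above and blue below the mean, WT at the left of the line and nid1 at the right. The column of WT replicate 3 is blue throughout, from -0.19 to -0.80.

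Ratios of FPKM between relatives within a library do not depend on how that library was scaled. They were taken here on FPKM + 1, so this independence is only approximate, least so for low genes such as delta-TIP3. The log2 ratio of delta-TIP1 to delta-TIP2 was -0.24, 0.29 and 0.16 in the WT libraries, beside 0.12, 0.75 and 0.72 in those of nid1. nid1 replicate 1 thus fell among the WT values. The mean difference was 0.46 (exact permutation p = 0.3, two-sided, adjusted p = 0.45 over the 3 pairs tested). For gamma-TIP1 to gamma-TIP2 it was -0.20 (exact permutation p = 0.3, adjusted p = 0.45), and for delta-TIP2 to delta-TIP3 it was 0.22 (exact permutation p = 0.5, adjusted p = 0.5). With 3 against 3 libraries the smallest p this test can give is 0.1, so it could not pass 0.05.

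Other aquaporins gave no call either. Of the 13 PIP genes, all tested, none was called, 8 were above 0 and the median log2 fold change was 0.03. PIP2;3 ranged from 10.05 to 12.9 FPKM in WT and lay lower in nid1, at 8.49 to 9.39 FPKM (log2 fold change -0.34, limma unadjusted p = 0.0278, adjusted p = 0.688), and 142 of the 1120 stretches of 101 bases in its annotated transcript sequence also occur in that of PIP2;2, so its value is uncertain. Of 9 tested genes of the NIP and SIP groups none was called and the median was 0.03. NIP2;1, a lactic acid channel induced by low oxygen, had WT values of 101, 167 and 182 FPKM and nid1 values of 84.2, 52.7 and 43.2 FPKM (log2 fold change -1.32, limma unadjusted p = 0.00217, adjusted p = 0.265). NIP1;1 ranged from 102 to 162 FPKM in WT, below its nid1 range of 181 to 193 FPKM (log2 fold change 0.47, limma unadjusted p = 0.0382, adjusted p = 0.749). No other of these 22 genes had an unadjusted p under 0.05. WT replicate 3 was the lowest library for 8 of the 13 PIP genes, and for 8 of them after rescaling by median ratios.

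No ammonium transporter and no other tonoplast transporter or pump subunit on the lists was called. Of 6 AMT ammonium transporters, which bring ammonium into the cell, 5 were tested, none had an unadjusted p under 0.05 and the median was -0.16. AMT1;1 averaged 342 ± 49.7 FPKM in WT against 303 ± 3.18 FPKM in nid1, and AMT1;3 averaged 87.2 ± 14.99 and 75.7 ± 2.17 FPKM (SD, n = 3 each). Of 17 subunits of the tonoplast proton pumps, which acidify the vacuole, 14 were below 0 with a median of -0.03 and a range from -0.13 to 0.05. Of 14 tested tonoplast carriers and channels for ions and sugars 8 were above 0, with a median of 0.05, and MTP1, a zinc transporter, had the smallest p (56.8 ± 5.81 and 48.9 ± 3.01 FPKM, limma adjusted p = 1.00). Neither list held a gene at an unadjusted p under 0.05.

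Markers of the shoot stood higher in nid1, the direction of the delta-TIP1 values, and delta-TIP1 is known from both organs. All 17 shoot markers were above 0 with a median of 1.08, though limma called none. Of them 16 had an unadjusted p under 0.05, against 3.65% of all tested genes in this direction. The genotypes did not overlap in 15, against 5.5% of all tested genes in this direction. LHCA2, of the photosystem I antenna, had WT values of 31.3, 40.4 and 29.1 FPKM and nid1 values of 66.9, 117 and 99.6 FPKM (limma adjusted p = 0.122). In replicate order, the summed shoot markers were 550, 818 and 578 FPKM in WT and 1006, 1753 and 1469 FPKM in nid1. The order of libraries within a genotype was not that of delta-TIP1, at 70.3, 65.5 and 39.8 FPKM in WT and 78.6, 90.9 and 91.7 FPKM in nid1. Of the 14 tested root markers 10 were above 0 with a median of 0.07, and none had an unadjusted p under 0.05. The summed root markers ranged from 3905 to 4554 FPKM in WT, against 3317 to 3452 FPKM in nid1. Most of this sum was PYK10, at 3429 to 3993 FPKM in WT and 2752 to 2900 FPKM in nid1. The mean log2(FPKM + 1) of the tested root markers overlapped, at 5.02 to 5.27 in WT and 5.19 to 5.25 in nid1. In such bulk samples, more cells of a type and more RNA per cell cannot be told apart. The labels give no share of shoot tissue per library, and the part of a differing share in the value of delta-TIP1 was not tested.

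**Figure D4:**
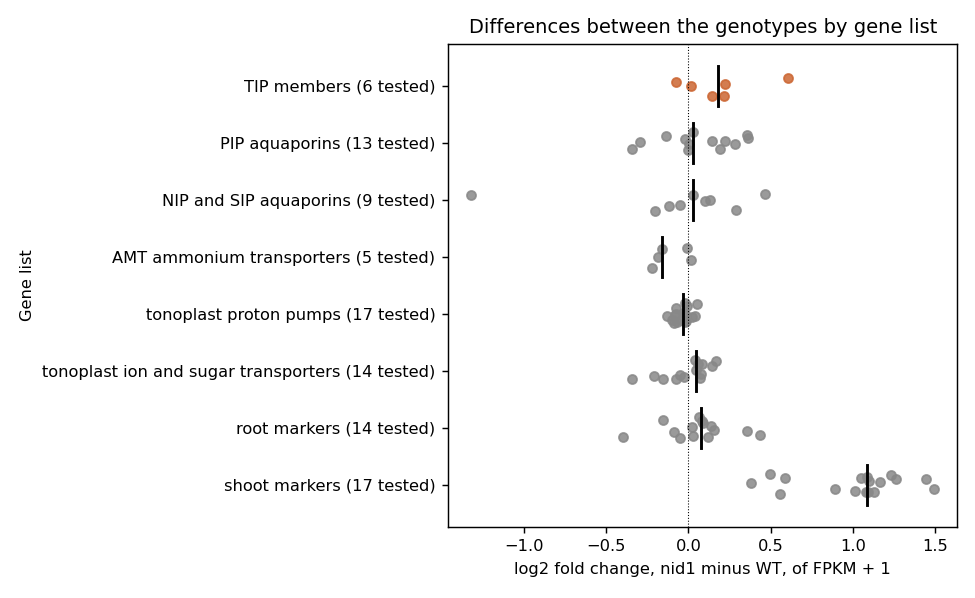
Log2 fold change (nid1 minus WT) of FPKM + 1 for every tested gene of each list, with points for genes and a vertical bar for the list median. The TIP genes, in orange, lie from -0.08 to 0.60 with a median of 0.18, and the shoot markers lie from 0.38 to 1.49.

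The genes whose pattern over the 6 libraries was most like the mean of the standardised TIP values were sought among 15186 tested genes with a mean of at least 5 FPKM. They were AT4G28550, of the Rab-GAP superfamily, NAD kinase gene NADK1, the peroxidase gene AT1G34510, the sulfotransferase gene ST4B and UMAMIT30, with Pearson r of 0.989 to 0.994 over 6 libraries, and 144 genes had an r above 0.9. They were ranked on these same values, so the r is a description. AT1G34510 had WT values of 21.6, 13.8 and 6.95 FPKM and nid1 values of 17.8, 16.3 and 14.8 FPKM. For ST4B these were 59.3, 43.4 and 24.8 FPKM and 50.7, 53.7 and 46.6 FPKM. All 5 were lowest in WT replicate 3 and highest in WT replicate 1, which held for 22.1% and 8.95% of all tested genes, each taken alone. The mean log2(FPKM + 1) of the TIP genes had the same extremes, at 6.05 and 6.77, so the ranking itself favours genes that share them.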

How the data were processed

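Poly(A) libraries from seedling material labelled as whole plant were read as 101 bp pairs with a stranded kit, per the labels' protocols. The authors deposited 1 FPKM value per gene and library. The submitters' processing notes name bcl2fastq 2.20, Bowtie, TopHat2 2.0.13 and Cuffdiff 2.2.1, with no roles. The library scaling, strand setting and genome build behind these values were not given in the sources used here. All told, of 38150 identifiers 37932 equalled RefSeq TAIR10.1 locus tags, including all genes named here, so coordinates and sequences are from that annotation, 1-based.

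Groups and replicate numbers came from sample titles. log2(FPKM + 1) was tested with limma 3.58.1 in R 4.3.3, two-sided, with a mean-variance trend and genotype as the only term, on genes reaching 1 FPKM in 3 or more libraries, with Benjamini-Hochberg adjustment over all 20533. Fold changes on this scale understate those of low genes. The fit was checked on simulated independent genes with known changes, so deviations that the genes of a library share were not covered. Ratios of FPKM + 1 between relatives were tested by exact permutation with scipy 1.17.1.

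The members and lists were chosen with earlier results of these data known. All 6 members and the other 4 TIP genes are named whatever their result. From each other list up to 4 genes of smallest p could be named, and the 5 genes most like the members. Genes outside this rule, such as CASP1, SKOR, RBCS1A, PRK and CA1, were named for their levels after these were seen. Alternatives were pseudocounts of 0.1 and 0.5, filters, rescalings, no trend, a replicate block and leaving out each library. Depth is unknown.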

Additional observations from a re-analysis of the deposited data

How the results depend on the processing

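No TIP gene was called in any of 14 other settings of the limma fit. gamma-TIP2, delta-TIP1 and TIP4;1 kept their sign in all 14, and 6 of 84 values of the 6 genes took the opposite sign, all when 1 library was left out. With WT replicate 3 left out, gamma-TIP1 was at -0.074 and delta-TIP2 at -0.15; gamma-TIP1 was also at -0.02 with WT replicate 2 left out and at -0.01 with nid1 replicate 3 left out, and delta-TIP3 at 0.006 without WT replicate 1 and 0.13 without WT replicate 2; the cause was not tested. Leaving out 1 library gave log2 fold changes from -0.074 to 0.15 for gamma-TIP1, from -0.15 to 0.45 for delta-TIP2, from -0.36 to 0.13 for delta-TIP3 and from 0.35 to 0.75 for delta-TIP1. Over all settings the smallest limma adjusted p of delta-TIP1 was 0.277 and the largest 1.00, and delta-TIP1 was above an unadjusted p of 0.05 without nid1 replicate 2 (0.0687) or nid1 replicate 3 (0.0646). Over all genes 18 were called, 8 to 35 when 1 library was left out (9, 25 and 8 for the WT libraries, 35, 8 and 10 for those of nid1, in replicate order) and 70 with a replicate block. Deviations from the genotype means correlated at -0.01, 0.13 and 0.30 between same-numbered libraries of the genotypes and at -0.38 to 0.22 between the others. These deviations sum to 0 within each genotype, so the correlations depend on each other and do not decide whether the numbers mark pairs. The main fit did not take them as pairs, and the replicate block gave delta-TIP1 a limma adjusted p of 0.431. The within-library ratio differences kept their sign in every setting; leaving out 1 library gave 0.31 to 0.67 for delta-TIP1 to delta-TIP2, -0.27 to -0.10 for gamma-TIP1 to gamma-TIP2 and 0.000826 to 0.44 for delta-TIP2 to delta-TIP3. The count of TIP estimates above 0 was recomputed without each library as a choice made after seeing the data and was 3 to 6. With the depth of the libraries unknown, counting error could not be separated from the spread between them.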
